A study of Arabidopsis thaliana with 8 samples.

Results

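A set of 62 probe sets, of 22746 measured on the ATH1 *Arabidopsis* array, was lower in inflorescences overexpressing *IaTCP1*, *TCP1* and *CYC* alike. The members were selected on their own values: the mean log2 intensity of the 2 arrays of each transgene had to lie at least 1 unit, that is 2-fold, below the mean of the 2 control arrays. This held for 74 probe sets, of which 12 were left out by name. The names left out were all symbols starting with CYP, ABC or MYB and a list of single genes. Among the 12 were *MAM1*, *IPMI1*, *ESM1* and *CYP83A1* of glucosinolate metabolism and *EXPA11*, *EXLB1* and *XTH7* of the cell wall. The counts by role given below do not include any of these. Of the 62 remaining members 53 stand for a single named gene, 1 for the pair *NPC4* and *NPC5*, and 8 carry no gene name in the tables used. Those 8 could not be screened by name. The platform's table gave 35 of the single names, and 18 came from the study's own tables of changed transcripts.

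All 4 groups were T2 plants of *Arabidopsis thaliana*, ecotype Columbia. Controls carried the empty pBAR vector, and the other groups carried *IaTCP1* from *Iberis amara*, the *Arabidopsis* gene *TCP1* or *CYC* (*CYCLOIDEA*) from *Antirrhinum majus* under the CaMV 35S promoter, which is active in most plant tissues. Secondary inflorescences bearing only closed buds were taken from plants chosen for a clear floral phenotype, with small petals in *IaTCP1* and *TCP1* plants and large petals in *CYC* plants. Each group consisted of 2 RNA samples of 1 transgenic line, so errors and p-values given below hold for repeated RNA preparations and leave out the differences among independent lines, and the small number of arrays limits the precision.

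The introduced genes encode CYC2-type TCP transcription factors, which are DNA-binding proteins. *CYC* and *IaTCP1* are known for their part in monosymmetric flowers, through petal growth on the adaxial side. *TCP1* comes from *Arabidopsis*, whose corolla is polysymmetric. TCP proteins act on cell division and cell expansion, and CYC2 factors can raise or lower the transcription of their targets. Members are described below by roles assigned by hand from their annotations, and 8 named members were assigned no function here besides the 8 without a name. For AT5G14980, AT1G02813, AT5G11400 and AT4G30460 the description used was blank, which does not mean that no function is known.

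The levels of the introduced genes themselves were not analysed here. Array medians lay between 6.48 and 6.56, and the arrays of a group correlated with r between 0.9967 and 0.9981. Over all probe sets the median change against the empty vector was 0.05 for *IaTCP1*, 0.03 for *TCP1* and 0.02 for *CYC*. Inflorescence tissue was checked with markers: the floral gene *AP1* had a log2 intensity of 11.14 in the controls, 10.52 with *IaTCP1*, 10.70 with *TCP1* and 9.74 with *CYC*, and the root marker *PYK10* one of 3.87 in the controls. The green leaf marker *RCA* lay above *AP1*, at 13.17 in the controls and 13.02 to 13.13 with the transgenes. The ovule marker *INO* was at 5.06 in the controls, and seed storage and xylem markers had no named probe set. *AP1*, the 1 of 8 floral identity markers with a named probe set, was named through the study's tables and passed the test as lower with *CYC* (-1.40, adjusted p = 2.57e-07 in limma). Markers of some floral tissues also moved with the transgenes. The summed intensity of 4 measured of 8 mature pollen markers was 4402 to 4482 in the controls, 1048 to 1050 with *IaTCP1*, 2115 to 2175 with *TCP1* and 4153 to 4199 with *CYC*. For 2 of 6 tapetum markers it was 2979 to 3184 in the controls, 1839 to 2047 with *IaTCP1*, 1712 to 1796 with *TCP1* and 868 to 886 with *CYC*. For 2 of 3 nectary markers it was 448 to 465 in the controls, 159 to 162 with *IaTCP1*, 307 to 325 with *TCP1* and 752 to 758 with *CYC*. These nectary markers shared a direction with *IaTCP1* alone. Changes for *IaTCP1*, *TCP1* and *CYC* were -1.36, 0.24 and 2.10 for *SWEET9* and -1.55, -0.85 and -0.13 for *cwINV4*. Of the 4 pollen markers 3 (*VGDH2*, *PGA4* and *CPK24*) had names only through the study's tables of changed transcripts, as had *cwINV4*. Those tables chose them on these same arrays, so their falls are no independent evidence. The part of pollen, tapetum and nectary in the values below was not tested. Fewer cells of a type and less RNA per cell cannot be told apart in whole inflorescences.

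Against the empty vector the members were lowered to different degrees. With *IaTCP1* their log2 changes ran from -2.73 to -1.02 (median -1.57), with *TCP1* from -2.21 to -1.01 (median -1.32) and with *CYC* from -2.76 to -1.01 (median -1.36). A reduction of 4-fold or more was reached by 16 members with *IaTCP1*, by 3 with *TCP1* and by 12 with *CYC*, and by 1, AT3G10890, with all of them. The lowest mean was found with *IaTCP1* for 31 members, with *CYC* for 25 and with *TCP1* for 6. In every one of the 62 members all 6 transgene arrays lay below both control arrays, with a gap of 0.57 to 2.04 log2 units. These comparisons share the same control arrays and were used by the selection, so the values describe the members and carry no test. For the same reason all 62 passed the 2-fold and adjusted p limits in each comparison, while 2.35% of all probe sets were called lower with *IaTCP1*, 1.25% with *TCP1*, 1.55% with *CYC* and 0.325% with all 3 of them.

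**Figure D1:**
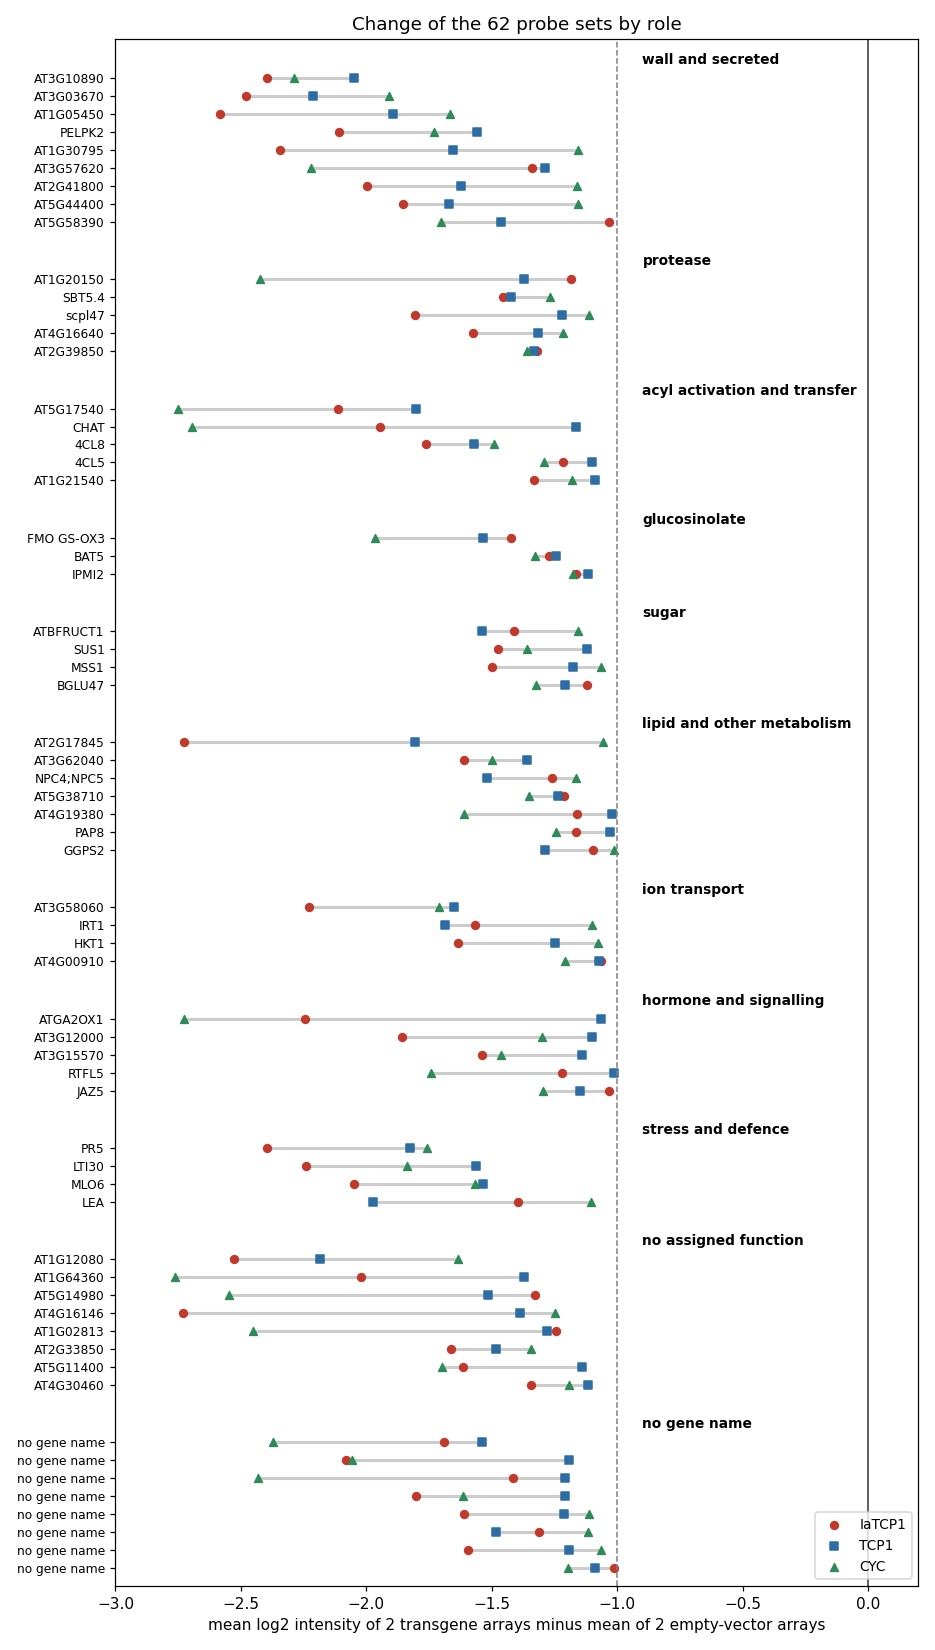
Mean log2 change against the empty vector (x axis) for each of the 62 members, grouped by role, with 1 symbol per transgene and a grey bar spanning the 3 of them. The dashed line marks the selection limit of -1, and the spread of a member's changes runs from 0.04 to 1.67 log2 units.

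The largest group, with 9 members, encodes proteins of the cell wall and other secreted proteins. Its median log2 change was -2.11 with *IaTCP1*, -1.66 with *TCP1* and -1.70 with *CYC*. AT3G10890, a glycosyl hydrolase listed under the name endo-beta-mannanase 3, had the lowest measured mean change of all members. Its log2 intensity was 6.24 and 6.23 with the empty vector, 3.84 and 3.84 with *IaTCP1*, 4.17 and 4.20 with *TCP1*, and 3.98 and 3.92 with *CYC*. The transgene arrays formed a narrow band below the controls, with measured reductions of 5.26, 4.14 and 4.88-fold in this order. No detection calls were used, so it is unknown whether these low levels exceeded background, and the folds may understate the reduction. Mean levels below 5 were found for 17 members with *IaTCP1*, 12 with *TCP1* and 15 with *CYC*, to which the same limit applies. AT3G03670, a class III peroxidase of the kind that oxidises wall phenolics, was measured at 7.06 and 7.13 in the controls against 4.65 and 4.59 with *IaTCP1*, 4.86 and 4.91 with *TCP1*, and 5.23 and 5.15 with *CYC*. For the lipid-transfer-like AT1G05450 the controls gave 8.72 and 8.83, *IaTCP1* 6.26 and 6.12, *TCP1* 6.92 and 6.84, and *CYC* 7.28 and 6.93. Both genes were lowest with *IaTCP1* and highest among the transgenes with *CYC*, without overlap between *IaTCP1* and the other transgenes. The remaining members were *PELPK2*, which encodes a hydroxyproline-rich glycoprotein, the glycine-rich AT1G30795, the glyoxal oxidase-related AT3G57620, AT2G41800 with a DUF642 domain, the berberine bridge enzyme-like AT5G44400 and a second peroxidase, AT5G58390. The second peroxidase followed another order than the first, with changes of -1.03 for *IaTCP1*, -1.46 for *TCP1* and -1.70 for *CYC*.

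Proteases accounted for 5 members, of which 3 are subtilases. The subtilase AT1G20150 stood at 10.01 and 9.96 in the controls, 8.78 and 8.82 with *IaTCP1*, 8.64 and 8.58 with *TCP1*, and 7.59 and 7.53 with *CYC*. *CYC* arrays thus lay apart from all the others. *SBT5.4* read 7.74 and 7.88 in the controls, 6.49 and 6.21 with *IaTCP1*, 6.35 and 6.43 with *TCP1*, and 6.58 and 6.50 with *CYC*, and here the transgene groups lay close together. The third subtilase, AT2G39850, had the most even response of all members, since its changes of -1.32, -1.33 and -1.36 (standard error 0.09 each) span 0.04 log2 units. The serine carboxypeptidase gene *scpl47* was measured at 8.97 and 8.74 in the controls, 7.22 and 6.88 with *IaTCP1*, 7.58 and 7.69 with *TCP1*, and 7.81 and 7.68 with *CYC*. The matrixin family metalloprotease AT4G16640 changed by -1.58, -1.32 and -1.22 for *IaTCP1*, *TCP1* and *CYC*.

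Enzymes that activate or transfer acyl groups made up another 5 members. AT5G17540, an HXXXD-type acyltransferase, was at 7.75 and 7.85 in the controls, 5.82 and 5.56 with *IaTCP1*, 5.95 and 6.05 with *TCP1*, and 5.06 and 5.04 with *CYC*. *CHAT*, whose product acetylates (Z)-3-hexenol to form a green leaf volatile, gave 7.03 and 6.93 in the controls, 5.30 and 4.78 with *IaTCP1*, 5.78 and 5.85 with *TCP1*, and 4.42 and 4.15 with *CYC*. Both acyltransferases were lowest with *CYC*, at 6.74 and 6.48-fold below the controls. The other enzymes form CoA thioesters. *4CL8* went from 8.34 and 7.95 to 6.51 and 6.25 with *IaTCP1*, 6.57 and 6.57 with *TCP1*, and 6.78 and 6.52 with *CYC*. *4CL5*, a 4-coumarate:CoA ligase of phenylpropanoid synthesis, and AT1G21540, an AMP-dependent ligase, changed by -1.33 to -1.09 across all transgenes. No difference between transgenes reached an adjusted p of 0.05 in limma for these ligases.

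Aliphatic glucosinolates, defence compounds of the Brassicaceae made from methionine, were represented by 3 members. *FMO GS-OX3*, which oxidises the side chain sulphur, was measured at 6.67 and 6.80 in the controls, 5.26 and 5.37 with *IaTCP1*, 5.25 and 5.15 with *TCP1*, and 4.80 and 4.74 with *CYC*. *BAT5*, a plastid transporter of the chain elongation pathway, gave 6.52 and 6.36 in the controls, 5.11 and 5.22 with *IaTCP1*, 5.24 and 5.15 with *TCP1*, and 5.09 and 5.13 with *CYC*. *IPMI2*, a small subunit of isopropylmalate isomerase in the same pathway, gave 5.60 and 5.66 in the controls, 4.37 and 4.57 with *IaTCP1*, 4.44 and 4.60 with *TCP1*, and 4.47 and 4.45 with *CYC*. *BAT5* and *IPMI2* were thus lowered about equally by all transgenes, whereas *FMO GS-OX3* was lower with *CYC*. A list of 33 genes of this pathway held 10 further measured genes, of which 4 passed the test as lower with *IaTCP1*, 3 with *TCP1* and 4 with *CYC*, and none as higher. *IPMI1*, *MAM1* and *CYP83A1* were among these for every transgene and belong to the genes left out by name. The regulator *MYB28* passed for *CYC* alone, at -2.08, and had changes of -0.88 with *IaTCP1* and -0.81 with *TCP1*. The 5 genes named independently of the study, *BCAT4*, *GSTU20*, AT2G31790, *AOP3* and *UGT74B1*, did not reach the 2-fold limit with any transgene, and their changes lay between -0.70 and 0.27. Without the fold limit *BCAT4* and *GSTU20* were lower at an adjusted p of 0.05 or less with every transgene, and AT2G31790 with *TCP1* and *CYC*. *BCAT4* (4.67) and *AOP3* (4.58) were dim in the controls, so a reduction may be understated.

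Sucrose breakdown and sugar handling contributed 4 members. *ATBFRUCT1*, a cell wall invertase that splits sucrose outside the cell, read 6.22 and 5.91 in the controls, 4.71 and 4.59 with *IaTCP1*, 4.50 and 4.54 with *TCP1*, and 5.05 and 4.76 with *CYC*. *SUS1*, a cytosolic sucrose synthase, read 9.89 and 9.70 in the controls, 8.35 and 8.28 with *IaTCP1*, 8.70 and 8.64 with *TCP1*, and 8.45 and 8.42 with *CYC*. For *MSS1* (also *STP13*), a hexose importer of the plasma membrane, the controls differed among themselves, at 6.56 and 5.98, against 4.96 and 4.57 with *IaTCP1*, 5.06 and 5.13 with *TCP1*, and 5.41 and 4.99 with *CYC*. No transgene array of these genes reached a control array. Without the higher control array the change of *MSS1* became -0.89 with *TCP1* and -0.78 with *CYC*, short of the selection limit. The beta-glucosidase *BGLU47* changed by -1.12, -1.21 and -1.32. Among 8 further measured genes of sucrose cleavage and hexose uptake, 3 passed as lower with *IaTCP1* (*STP9*, *CWINV2* and *cwINV4*), 1 with *TCP1* (*STP9*) and 1 with *CYC* (*STP14*). All of these were named through the study's tables, which chose them on these arrays. The 4 genes named by the platform's table had no call with any transgene. *STP9* encodes a pollen hexose transporter and *cwINV4* an invertase that is itself one of the nectary markers, and markers of pollen and nectary were lower with *IaTCP1* as given above, a part that was not tested.

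Lipid and other metabolism comprised 7 members. AT2G17845, a Rossmann-fold oxidoreductase, had the widest spread among transgenes, with 7.48 and 7.67 in the controls, 4.81 and 4.89 with *IaTCP1*, 5.84 and 5.70 with *TCP1*, and 6.47 and 6.56 with *CYC*. Each group occupied a level of its own, from a 6.61-fold reduction with *IaTCP1* to a 2.08-fold one with *CYC*. AT3G62040, a haloacid dehalogenase-like hydrolase, was at 6.78 and 7.02 in the controls, 5.11 and 5.46 with *IaTCP1*, 5.40 and 5.67 with *TCP1*, and 5.39 and 5.41 with *CYC*. The probe set for *NPC4* and *NPC5*, phospholipases C that cannot be told apart here, gave 6.90 and 6.55 in the controls, 5.61 and 5.31 with *IaTCP1*, 5.17 and 5.24 with *TCP1*, and 5.62 and 5.49 with *CYC*. The transgene groups of both probe sets overlapped or nearly touched. Changes between -1.61 and -1.01 were found for AT5G38710, which the study's tables place in proline degradation, the long-chain fatty alcohol dehydrogenase AT4G19380, the purple acid phosphatase *PAP8* and the geranylgeranyl pyrophosphate synthase *GGPS2*.

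Ion transport was represented by 4 members, among them *IRT1*, the main iron importer of the *Arabidopsis* root. AT3G58060, of the cation efflux family, was measured at 7.00 and 6.88 in the controls, 4.60 and 4.83 with *IaTCP1*, 5.20 and 5.37 with *TCP1*, and 5.32 and 5.14 with *CYC*. *IRT1* was at 7.01 and 6.86 in the controls, 5.42 and 5.31 with *IaTCP1*, 5.23 and 5.26 with *TCP1*, and 5.79 and 5.88 with *CYC*. The sodium transporter gene *HKT1* was at 7.19 and 6.87 in the controls, 5.41 and 5.39 with *IaTCP1*, 5.66 and 5.90 with *TCP1*, and 6.09 and 5.82 with *CYC*. While *CYC* arrays were the highest of the transgenes for *IRT1*, they overlapped those of *TCP1* for the other genes. AT4G00910, an aluminium-activated malate transporter, was lowered nearly equally, by -1.07, -1.07 and -1.21. Of the further measured genes on the list of iron and metal uptake *NRAMP1* rose with *CYC* by 1.36 (0.83 with *IaTCP1* and 0.47 with *TCP1*). *NRAMP1* was named through the study's tables, which chose it on these arrays. *BHLH101* had changes of 0.16, 0.08 and 0.35. Its control level of 3.69 was so low that a reduction could hardly have been seen.

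Hormone and signalling genes comprised 5 members. *ATGA2OX1*, a gibberellin 2-oxidase that inactivates this growth hormone, was at 8.51 and 8.55 in the controls, 6.24 and 6.34 with *IaTCP1*, 7.50 and 7.43 with *TCP1*, and 5.64 and 5.97 with *CYC*. It was thus 4.74-fold lower with *IaTCP1* and 6.62-fold lower with *CYC*, but 2.10-fold lower with *TCP1*. On the same hormone pathway *GA20OX2*, an enzyme of gibberellin synthesis, passed as lower with *IaTCP1* (-1.23) and had changes of -0.76 with *TCP1* and -0.90 with *CYC*. AT3G12000, related to the S-locus protein SLR1, read 10.81 and 10.83 in the controls, 8.96 and 8.97 with *IaTCP1*, 9.74 and 9.70 with *TCP1*, and 9.50 and 9.54 with *CYC*. The NPH3 family gene AT3G15570 read 7.17 and 7.13 in the controls, 5.54 and 5.68 with *IaTCP1*, 6.10 and 5.93 with *TCP1*, and 5.63 and 5.74 with *CYC*. For all of these *TCP1* left the highest level among the transgenes. *RTFL5*, a small peptide of the ROTUNDIFOLIA family whose overexpressed relatives shorten organs, changed by -1.22, -1.01 and -1.74. *JAZ5*, a repressor of jasmonate responses, changed by -1.04, -1.15 and -1.29. Of the other measured genes on the jasmonate list *JAZ10* passed as lower with *IaTCP1* (-1.39) and *TCP1* (-1.10), and *LOX4* with *IaTCP1* (-1.04). *JAZ10*, *LOX4* and *GA20OX2* were named through the study's tables, which chose them on these arrays.

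Stress and defence transcripts comprised 4 members. *PR5*, a thaumatin-like protein induced by salicylic acid, was measured at 7.96 and 8.07 in the controls, 5.79 and 5.45 with *IaTCP1*, 6.30 and 6.09 with *TCP1*, and 6.38 and 6.14 with *CYC*. The dehydrin gene *LTI30* gave 5.98 and 6.10 in the controls, 3.74 and 3.85 with *IaTCP1*, 4.43 and 4.52 with *TCP1*, and 4.23 and 4.17 with *CYC*. *MLO6*, a membrane protein of powdery mildew susceptibility, gave 6.75 and 6.59 in the controls, 4.58 and 4.67 with *IaTCP1*, 5.11 and 5.17 with *TCP1*, and 4.97 and 5.24 with *CYC*. All of them were lowest with *IaTCP1*, and for *PR5* and *MLO6* the arrays of *TCP1* and *CYC* overlapped. The second dehydrin, named *LEA*, was lowest with *TCP1*, with changes of -1.40, -1.98 and -1.11 (standard error 0.15 each). Among 5 further measured dehydrin and dehydration genes, 3 passed as lower with *IaTCP1* (*LTI78*, *COR47* and *ERD10*), 1 with *TCP1* (*COR47*, -1.04) and 1 with *CYC* (*LTI78*). *LTI78* and *ERD10* were named through the study's tables, which chose them on these arrays, and *COR47* by the platform's table. *BGL2*, another salicylic acid-induced gene, went the opposite way to *PR5* and rose by 2.51 with *IaTCP1* and 1.27 with *CYC*, with a change of 0.80 for *TCP1*. It was the 1 further measured gene on a list of 11, and was likewise named through the study's tables, which chose it on these arrays.

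Among 8 named genes without an assigned function several were lowered strongly. AT1G12080, annotated as related to a vacuolar calcium-binding protein, was at 10.47 and 10.59 in the controls, 8.08 and 7.93 with *IaTCP1*, 8.26 and 8.43 with *TCP1*, and 8.87 and 8.91 with *CYC*. AT1G64360 was at 6.23 and 6.49 in the controls, 4.25 and 4.42 with *IaTCP1*, 4.82 and 5.15 with *TCP1*, and 3.64 and 3.55 with *CYC*. The order of the transgenes thus differed between them, the former being lowest with *IaTCP1* and the latter with *CYC*. AT4G16146, related to a cAMP-regulated phosphoprotein, had 8.15 and 8.30 in the controls, 5.56 and 5.44 with *IaTCP1*, 6.69 and 6.99 with *TCP1*, and 6.94 and 7.02 with *CYC*. AT5G14980 had 7.00 and 7.20 in the controls, 5.76 and 5.78 with *IaTCP1*, 5.45 and 5.72 with *TCP1*, and 4.44 and 4.66 with *CYC*. AT1G02813 had 11.34 and 11.42 in the controls, 10.09 and 10.18 with *IaTCP1*, 10.04 and 10.16 with *TCP1*, and 8.86 and 8.99 with *CYC*. In each of the last genes a single transgene stood apart, *IaTCP1* for AT4G16146 and *CYC* for the others. The remaining AT2G33850, AT5G11400 and AT4G30460 had changes between -1.70 and -1.12.

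The 8 members without a gene name had median changes of -1.60 with *IaTCP1*, -1.21 with *TCP1* and -1.41 with *CYC*. The one with the lowest mean change was at 7.03 and 6.87 in the controls, 5.39 and 5.14 with *IaTCP1*, 5.43 and 5.40 with *TCP1*, and 4.67 and 4.49 with *CYC*. The noisiest of all members was an unnamed probe set with 8.58 and 7.97 in the controls, 7.21 and 6.51 with *IaTCP1*, 7.18 and 6.96 with *TCP1*, and 6.05 and 5.64 with *CYC*. In every group its array numbered 1 was the higher one, and the standard error of each difference was 0.23. A further unnamed member read 10.45 and 10.54 in the controls, 8.30 and 8.52 with *IaTCP1*, 9.21 and 9.39 with *TCP1*, and 8.38 and 8.49 with *CYC*, so that *TCP1* lay between the controls and the other transgenes.

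**Figure D2:**
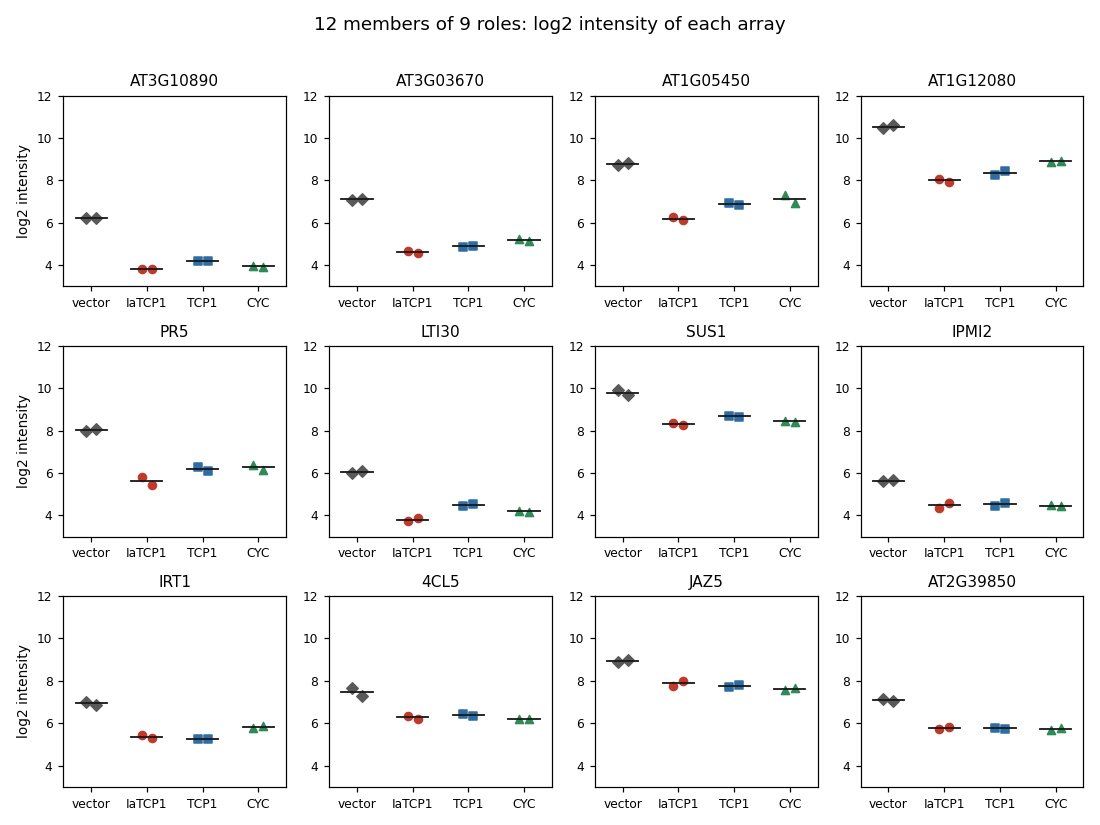
Log2 intensity (y axis) on each array for members of different roles, with symbols for single arrays and a bar for the mean of each group of 2 (n = 2). In each panel all transgene arrays lie below both empty vector arrays, and AT3G10890 stands at 3.84 with *IaTCP1* against 6.24 and 6.23 in the controls.

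The selection limit cut through a continuum. Just inside it were *RTFL5*, whose smallest reduction was -1.01 with *TCP1*, *GGPS2* with -1.01 for *CYC*, and an unnamed probe set with -1.02 for *IaTCP1*. Just outside were the purple acid phosphatase *PAP21*, at -0.9998 with *CYC*, the protein phosphatase *HAI2*, at -0.99 with *TCP1*, and a probe set that names 2 genes, at -0.98 with *TCP1*. When the first control array was left out, 52 of the 62 members still met the limit and 13 other probe sets joined them. Without the second control array the corresponding numbers were 58 and 13.

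To ask whether the transgenes differ in how far they lower these transcripts, they were compared with each other directly. This difference does not use the control arrays, although the same 6 transgene arrays had entered the selection. Members were selected as responding to the transgenes, so their shares and those of all probe sets given below are not like for like. Of the 62 members 10 were called in at least 1 of the 3 direct comparisons, and 52 in none. The share of all probe sets called in at least 1 was not computed, so shares are given for each comparison. A missing call does not show a difference under 2-fold, for which the intervals are given below. Between *IaTCP1* and *TCP1* 2 members (3.23%) differed at least 2-fold with an adjusted p of 0.05 or less in limma, beside 0.642% of all probe sets. Between *IaTCP1* and *CYC* 7 members (11.3%) differed, beside 2.72% of all, and between *TCP1* and *CYC* 7 members (11.3%), beside 1.99% of all. Without the fold limit the counts were 22 (35.5%), 35 (56.5%) and 26 (41.9%), beside 6.35%, 17.3% and 17.5% of all probe sets. Of these differences 20 of 22 were lower with *IaTCP1* than with *TCP1*, 21 of 35 lower with *IaTCP1* than with *CYC*, and 16 of 26 lower with *CYC* than with *TCP1*. The 95% interval of the difference lay wholly within 2-fold for 57, 49 and 50 members in the same order, and for 44 members in all comparisons. AT2G39850 was the closest case, with intervals of -0.18 to 0.20, -0.15 to 0.23 and -0.16 to 0.22. *BAT5*, *IPMI2* and AT4G00910 likewise had all intervals between -0.26 and 0.34.

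**Figure D3:**
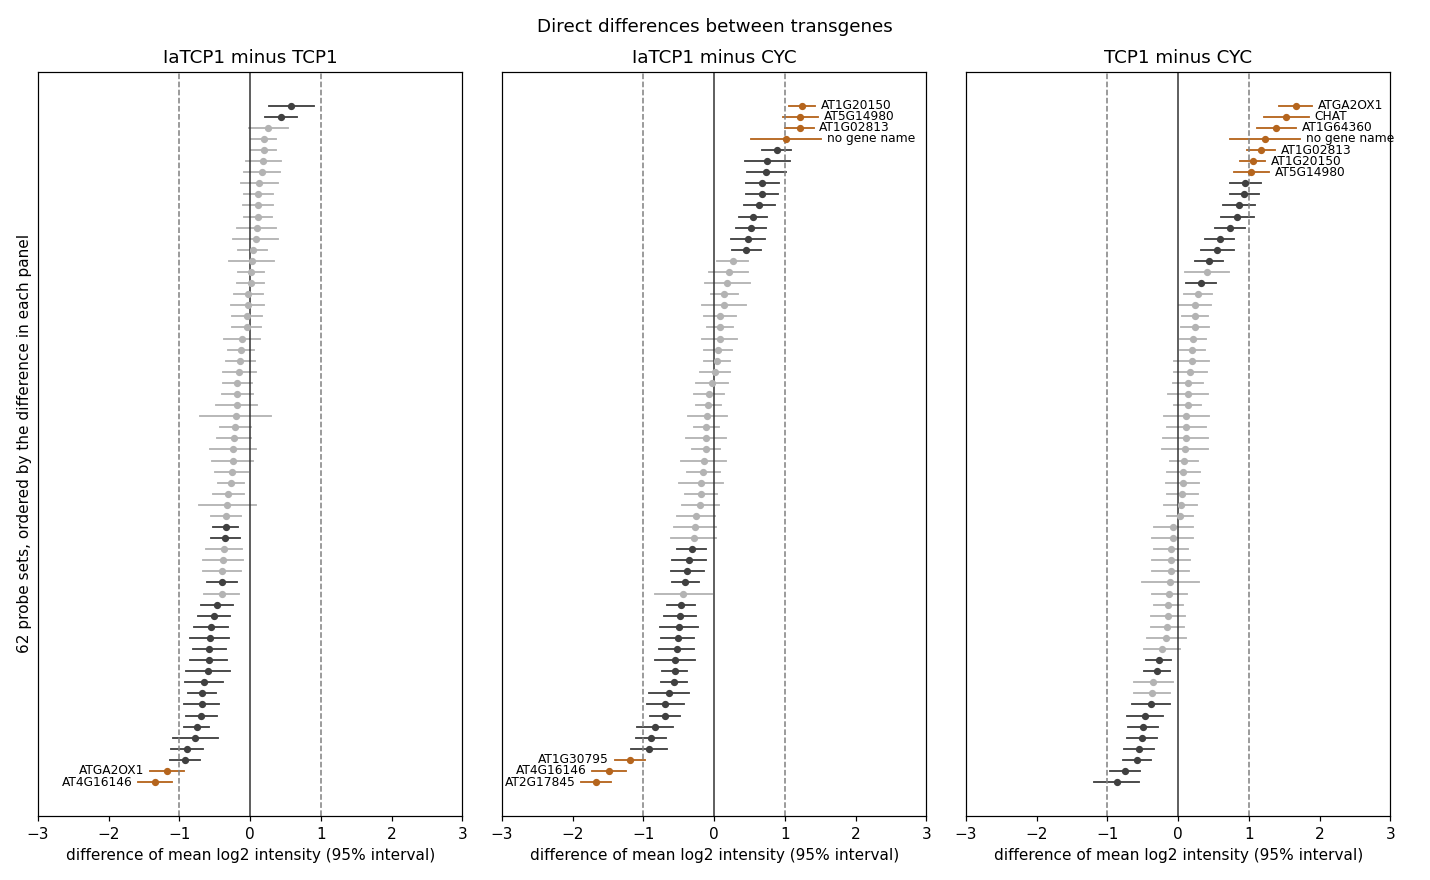
Difference of mean log2 intensity between transgenes (x axis) with its 95% interval for the 62 members, ordered within each panel. Orange marks members that differed at least 2-fold (dashed lines) with an adjusted p of 0.05 or less, dark grey those with an adjusted p of 0.05 or less alone and light grey the others, and the counts of orange members are 2, 7 and 7.

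Among the members that differed 2-fold, *CYC* left the lowest level of *ATGA2OX1*, *CHAT*, AT1G64360, AT5G14980, AT1G20150, AT1G02813 and the noisiest, unnamed probe set. All of these were at least 2-fold lower with *CYC* than with *TCP1*. *ATGA2OX1* differed most, by 1.66 log2 units (standard error 0.11, adjusted p = 6.2e-07 in limma), followed by *CHAT* with 1.53 (standard error 0.15, adjusted p = 1.38e-05) and AT1G64360 with 1.39 (standard error 0.12, adjusted p = 8.63e-06). The protease AT1G20150 and AT1G02813 stood 1.05 and 1.17 units higher with *TCP1* than with *CYC*, and 1.24 and 1.21 units higher with *IaTCP1* than with *CYC*. AT5G14980 was 1.04 units higher with *TCP1* and 1.22 higher with *IaTCP1* than with *CYC*, and the unnamed probe set 1.22 and 1.02 units higher. The tapetum markers *AMS* and AT5G07230 were also lowest with *CYC*, at a change of -1.81 each against the empty vector, as was the floral identity marker *AP1* at -1.40. Their part in these differences was not tested.

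*IaTCP1* in turn left the lowest level of AT4G16146, AT2G17845 and the glycine-rich AT1G30795. AT4G16146 was lower with *IaTCP1* than with *TCP1*, with a difference of -1.34, and lower than with *CYC*, with a difference of -1.48 (standard error 0.11, adjusted p = 1.1e-06 in limma). AT2G17845 showed the largest difference between any transgenes, -1.67 between *IaTCP1* and *CYC* (standard error 0.10, adjusted p = 1.44e-07), and its difference of -0.92 between *IaTCP1* and *TCP1* stayed under 2-fold. AT1G30795 was at 7.62 and 7.84 in the controls, 5.36 and 5.41 with *IaTCP1*, 5.99 and 6.15 with *TCP1*, and 6.55 and 6.60 with *CYC*, a difference of -1.19 between *IaTCP1* and *CYC* (adjusted p = 2.91e-06). For AT2G17845 and AT1G30795 the transgenes followed the same order as for the pollen markers, with *IaTCP1* lowest, *TCP1* between and *CYC* highest. The order was not particular to these genes, since the means of AT4G16146, AT3G03670, AT1G12080, AT1G05450 and further members followed it too. With *CYC* AT2G17845 and AT1G30795 were 2.08 and 2.23-fold lower than in the controls, and the pollen markers *VGDH2*, AT3G07820, *PGA4* and *CPK24* had changes between -0.15 and -0.06. Of these markers all but AT3G07820 were named through the study's tables of changed transcripts, and the part of pollen in these differences was not tested. *ATGA2OX1* was the sole member whose level with *TCP1* was more than 2-fold above that of both other transgenes, since it also differed by -1.18 between *IaTCP1* and *TCP1* (adjusted p = 3.41e-05).

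**Figure D4:**
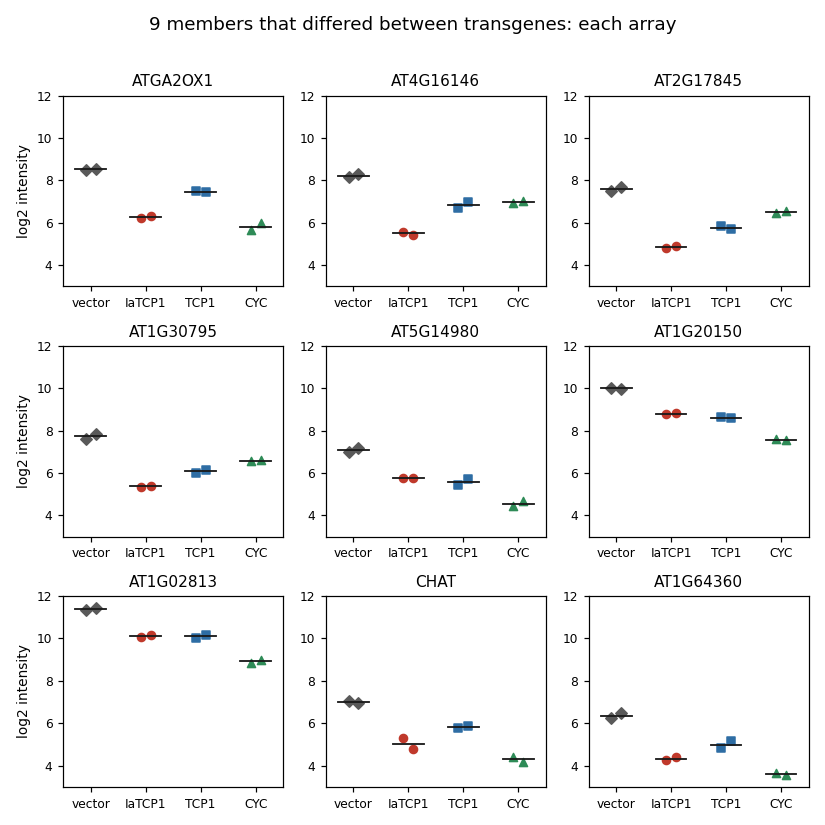
Log2 intensity (y axis) on each array for the named members that differed at least 2-fold between transgenes, with symbols for single arrays and a bar for the mean of each group (n = 2). *CYC* arrays are lowest for AT1G20150, at 7.59 and 7.53, and *IaTCP1* arrays for AT2G17845, at 4.81 and 4.89.

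Sets of pathway genes were only partly covered, and most of their genes were named through the study's tables of changed transcripts, which chose them on these arrays. Counts over the lists are no independent evidence of their direction. Medians are therefore given over the genes outside the 62 members that the platform's table names. For 5 genes of aliphatic glucosinolates they were -0.17 with *IaTCP1*, -0.38 with *TCP1* and -0.57 with *CYC*, beside 0.05, 0.03 and 0.02 for all probe sets. The 4 genes of sucrose cleavage and hexose uptake had medians of 0.15, 0.07 and 0.19, and the 3 dehydrin and dehydration genes medians of -0.83, -0.06 and -0.57. Among these *cwINV6* (3.89), AT3G19940 (4.46) and *HIS1-3* (4.58) were dim in the controls, so a reduction may be understated. Of 4 measured genes of the phenylpropanoid list *4CL5* was a member, *4CL2* passed as lower with *IaTCP1* (-1.52) and with *TCP1*, and *CCR2* and *HCT* stayed between -0.64 and 0.48.

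**Figure D5:**
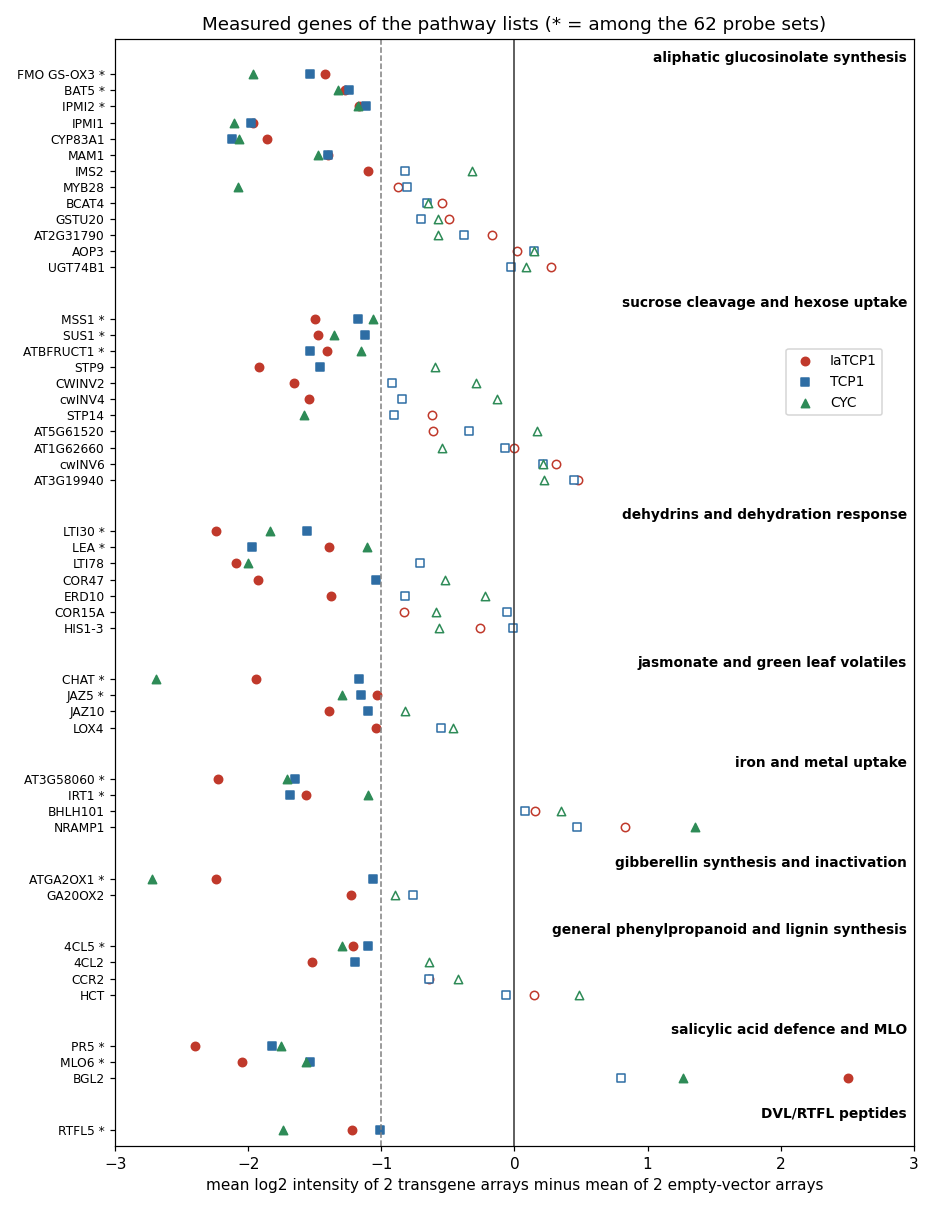
Mean log2 change against the empty vector (x axis) of every measured gene on the pathway lists, 1 symbol per transgene, filled where the change was at least 2-fold with an adjusted p of 0.05 or less. Members, marked by an asterisk, lie left of -1 for all transgenes by selection. *NRAMP1*, *BGL2*, *AOP3*, *cwINV6*, AT3G19940 and *BHLH101* lie to the right of 0 for all transgenes.

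Few members lie near each other on the chromosomes. For the *NPC4* and *NPC5* pair distances were counted to *NPC4* alone. *CHAT* and *NPC4* are separated by 4 protein-coding genes. Between the peroxidase gene AT3G03670 and *NPC4* there are 13 protein-coding genes, and between AT3G03670 and *CHAT* 18. No other members with a locus were found within 20 protein-coding genes of each other. *CHAT* and AT3G03670 followed different orders among the transgenes, as among the transgenes *CHAT* was lowest and AT3G03670 highest with *CYC*.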

How the data were processed

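RNA was hybridised to 8 Affymetrix ATH1 arrays, 2 for each of 4 groups. The authors normalised the arrays by RMA (Partek is named in the submitters' processing notes, versions are not given in the sources used here) and deposited them as log2 intensities, a single value for every probe set on an array, taken over unchanged. RMA compresses differences of dim probe sets, and no detection calls were used, so whether a low level exceeds background is unknown. After leaving out 64 hybridisation controls, 22746 probe sets were fitted by limma 3.58.1 (R 4.3.3, functions lmFit and eBayes) with a mean for each group, 4 residual degrees of freedom and 7.9 from the prior, with Benjamini-Hochberg adjustment within each comparison. A call needed a 2-fold difference and an adjusted p of 0.05 or less. The fit was tested on simulated data.

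Members were chosen by the 2-fold rule given above. The members, the gene lists and the markers were chosen with earlier results of these data known. Array values were given for the 10 members with the lowest mean change, all members called between transgenes and up to 3 members per role with the lowest mean change. By the platform annotation 13513 probe sets stand for 1 gene and 503 for several, the study's tables add 428 with 1 and 26 with several genes, and 8276 are unnamed here. Gene order came from RefSeq's TAIR10.1 table. Promoter motifs and sequences were not analysed here. The study's own columns of fold changes and p-values were not used. Alternatives comprised each array left out, other selection limits, quantile and cyclic loess normalisation, a filter on dim probe sets, fits of 4 arrays and a replicate block. Plots were made in matplotlib 3.10.9 under Python 3.11.15.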

Additional observations from a re-analysis of the deposited data

Results flagged for a closer look

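The 62 members had been lowered by every transgene, yet 10 of them differed at least 2-fold between transgenes in the direct comparison of the limma fit. Between *IaTCP1* and *TCP1* 3.23% of members were called, beside 0.642% of all probe sets. The shares were 11.3% beside 2.72% between *IaTCP1* and *CYC*, and 11.3% beside 1.99% between *TCP1* and *CYC*. These shares are not like for like, because the members were selected on the same transgene arrays as responding to the transgenes. Their median control level was also higher, at 7.42 against 6.54 for all probe sets. No conclusion about the members is drawn from the higher shares. With *IaTCP1* compared with *TCP1*, *ATGA2OX1* differed by -1.18 and AT4G16146 by -1.34. With *IaTCP1* compared with *CYC*, the difference was -1.67 for AT2G17845, -1.48 for AT4G16146 and -1.19 for AT1G30795, while AT5G14980 differed by 1.22, AT1G20150 by 1.24, AT1G02813 by 1.21 and the noisiest, unnamed probe set by 1.02. In *TCP1* compared with *CYC* the differences were 1.66 for *ATGA2OX1*, 1.53 for *CHAT*, 1.39 for AT1G64360, 1.22 for the same unnamed probe set, 1.17 for AT1G02813, 1.05 for AT1G20150 and 1.04 for AT5G14980. In each case both arrays of the lower group lay below both arrays of the higher group.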

How the results depend on the processing

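The number of members was 142 with a selection limit of -0.8 and 27 with -1.2, and 36 when every transgene array had to lie 1 unit below every control array. It ranged from 59 to 71 when single arrays were left out, and was 58 after quantile and 62 after cyclic loess normalisation. Members differing between transgenes numbered 22, 35 and 26 without the fold limit, and with single arrays left out 2 to 3 between *IaTCP1* and *TCP1*, 6 to 8 between *IaTCP1* and *CYC*, and 6 to 7 between *TCP1* and *CYC*. The noisiest, unnamed probe set lost its call between *IaTCP1* and *CYC* without the first *IaTCP1* array (0.66, adjusted p = 0.069 in limma), without the second *CYC* array (0.81, adjusted p = 0.0719) and after cyclic loess (0.98). AT5G14980 lost its call between *TCP1* and *CYC* without the second *TCP1* array (0.90) or the first *CYC* array (0.93). The cause of these losses was not tested. Counts of differing members stayed at 2, 7 and 7 when the fit held the 4 arrays compared alone or after quantile normalisation, and at 2, 7 and 6 when probe sets with a mean under 5 were left out, a filter that 55 members passed. Replicate numbers were shared by all groups, and deviations of same-numbered arrays correlated with r of 0.16 to 0.52, but the labels give no pairing. With the replicate number as a block the counts of differing members stayed at 2, 7 and 7, and no member lost a call. The planned count of TCP motifs in promoters was not run, because no promoter sequences were used here.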
